A study of Homo sapiens with 12 samples.

Results

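The transcripts of collagens, laminins and integrins were followed across 12 libraries given as NCI-H520, a human lung squamous cell carcinoma line. The members were chosen by gene symbol alone, as protein-coding genes named COL, LAM or ITG with a chain number or letter, without a threshold on any measured value. They came to 82 of the 58302 genes in the count table, of which 44 were collagen, 12 laminin and 26 integrin genes. A filter on low counts left 63 of the 82 among 17849 genes tested, namely 30 collagens, 11 laminins and 22 integrins.

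Collagens, laminins and integrins form the link between a cell and its matrix. Type IV collagen chains and laminin trimers build the basement membrane sheet under epithelia, and fibrillar collagens build the stroma. Type VII and type XVII collagen help to anchor squamous epithelium to the tissue below. Integrins are receptors made of 1 alpha and 1 beta subunit, so that the subunits a cell makes decide which matrix proteins it can grip. In squamous epithelium, ITGA6 with ITGB4 forms hemidesmosomes on laminin-332, a trimer that holds the LAMA3 and LAMB3 chains, while ITGA1, ITGA2, ITGA10 and ITGA11 pair with ITGB1 to bind collagen.

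RNA was sequenced from 4 groups of 3 libraries, all given as NCI-H520. According to their labels, the cells of 3 groups stably overexpressed L1-FGGY, a transcript that joins a LINE-1 retrotransposon to the gene FGGY, and were given 0.2% DMSO (OV-L1-FGGY DMSO), the 12-LOX inhibitor ML355 at 10 μM (OV-L1-FGGY ML355), or the reverse transcriptase inhibitor NVR at 450 μM. The fourth group had DMSO only and was read as the control (CTRL DMSO). Medium with the agents replaced the seeding medium after 5 h, and the length of treatment is not given. No DMSO content is given for the ML355 and NVR groups. The construct came from a lentivirus. No second line is named, and whether all libraries are of one line was not tested. Nothing in the labels shows that libraries of a group came from separate cultures. The p-values therefore measure only the spread between these libraries, which may be technical.

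The libraries held 16242082 to 27004768 counts and fell into 2 pairs of groups that do not follow the labels. FGGY was at 287 ± 22.0 CPM (counts per 1e6 reads; SD, n = 3) in OV-L1-FGGY DMSO and 318 ± 47.8 CPM in ML355, against 3.41 ± 0.418 CPM in CTRL DMSO and 4.25 ± 0.523 CPM in the libraries labelled NVR. Over all genes tested, log2 CPM correlated at 0.932 or more between the 2 groups of a pair and at 0.706 to 0.774 across the pairs. The squamous markers did not run one way between the pairs. SOX2 was at 0 counts in all 6 libraries of the high-FGGY pair and 128 to 446 counts in the others, while KRT17 was at 16304 to 97372 counts in the high-FGGY pair and 1 to 6 in the others, and KRT14 at 4 to 63 and 0 counts. KRT5 reached at most 3 counts in any library, and KRT6A and DSG3 were at 0 throughout. The third group is therefore called the libraries labelled NVR, and comparisons between the pairs, where FGGY, SOX2 and many other genes differ together, are given after those within a pair.

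The positions of the genes bear on several results, and 6 promoter windows are shown for that reason. RefSeq windows (GRCh38.p14, 250 bases before to 50 after the start) were found for 58 of the 82 members and none for the other 24. COL4A1 and COL4A2, COL4A3 and COL4A4, and COL4A5 and COL4A6 are 3 pairs of type IV collagen genes that run apart from a shared start region, and the windows of the 2 genes in a pair overlap by 226, 82 and 121 bases. ITGA1 and ITGA2 are neighbours on one strand of chromosome 5, and both fell with ML355. COL6A2 had the largest rise with ML355 among the members called. Capitals mark matches, on either strand, to the letters TATAAA (held by 11.5% of all 35116 windows), CCAAT (34.6%), the GC box GGGCGG (45%) and TGANTCA, the site of AP-1 (7.71%). No match of one motif overlapped a match of another in these 6 windows.
COL4A1, chr13:110307108-110307407, minus strand: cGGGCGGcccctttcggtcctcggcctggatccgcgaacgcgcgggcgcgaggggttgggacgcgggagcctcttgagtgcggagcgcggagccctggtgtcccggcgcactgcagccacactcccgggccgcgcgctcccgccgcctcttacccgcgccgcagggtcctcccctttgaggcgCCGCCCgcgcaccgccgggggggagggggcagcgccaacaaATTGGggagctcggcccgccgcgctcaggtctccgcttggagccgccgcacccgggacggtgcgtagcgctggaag
COL4A3, chr2:227164374-227164673, plus strand: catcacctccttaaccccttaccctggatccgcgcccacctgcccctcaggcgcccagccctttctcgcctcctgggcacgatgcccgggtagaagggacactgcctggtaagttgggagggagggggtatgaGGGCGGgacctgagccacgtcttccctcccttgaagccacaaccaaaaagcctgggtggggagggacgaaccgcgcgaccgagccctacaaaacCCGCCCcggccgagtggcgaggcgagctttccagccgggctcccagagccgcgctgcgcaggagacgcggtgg
COL4A5, chrX:108439588-108439887, plus strand: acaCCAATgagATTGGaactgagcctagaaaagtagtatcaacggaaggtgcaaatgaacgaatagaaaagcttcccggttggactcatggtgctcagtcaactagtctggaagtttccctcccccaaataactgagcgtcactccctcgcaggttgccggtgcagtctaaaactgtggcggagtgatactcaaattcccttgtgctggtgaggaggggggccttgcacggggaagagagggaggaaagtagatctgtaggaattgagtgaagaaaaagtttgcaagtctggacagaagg
ITGA1, chr5:52787666-52787965, plus strand: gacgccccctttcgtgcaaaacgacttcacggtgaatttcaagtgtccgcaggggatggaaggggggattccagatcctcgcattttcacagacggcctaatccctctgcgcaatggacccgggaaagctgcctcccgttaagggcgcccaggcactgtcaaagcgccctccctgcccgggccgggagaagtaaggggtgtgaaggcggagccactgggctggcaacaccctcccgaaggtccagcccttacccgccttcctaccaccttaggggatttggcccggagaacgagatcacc
ITGA2, chr5:52989102-52989401, plus strand: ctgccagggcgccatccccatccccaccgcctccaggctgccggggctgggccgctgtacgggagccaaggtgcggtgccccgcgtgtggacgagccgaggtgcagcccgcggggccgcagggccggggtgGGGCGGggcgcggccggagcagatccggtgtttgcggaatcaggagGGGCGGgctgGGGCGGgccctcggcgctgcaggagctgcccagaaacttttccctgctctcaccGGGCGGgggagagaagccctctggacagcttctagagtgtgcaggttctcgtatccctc
COL6A2, chr21:46097862-46098161, plus strand: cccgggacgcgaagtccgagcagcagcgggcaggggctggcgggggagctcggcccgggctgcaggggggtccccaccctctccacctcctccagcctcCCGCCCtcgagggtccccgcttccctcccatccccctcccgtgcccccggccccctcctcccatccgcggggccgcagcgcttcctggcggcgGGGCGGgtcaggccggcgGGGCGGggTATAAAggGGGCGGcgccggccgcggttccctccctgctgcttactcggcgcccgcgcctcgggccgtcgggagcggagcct
The COL6A2 window held 4 GC boxes and 1 TATAAA, the ITGA2 window 4 GC boxes, and the ITGA1 window none of the 4 motifs. The COL4A5 window had 2 CCAAT letters and 8 CG pairs, against 45 CG pairs in that of COL4A1 and a median of 14 over all windows. These matches describe the letters only.

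A broad part of the matrix and adhesion genes was lower in the ML355 libraries than in the DMSO libraries of OV-L1-FGGY cells. Of 63 members tested, 29 fell and 2 rose with ML355 against DMSO, which is 46.0% and 3.17%, where over all genes tested 23.5% were lower and 21.3% higher. The median log2 fold change of the members was -0.742, against 0.0 over all genes. Scaling by library size alone shifted the median of all genes by -0.127 and gave 1 member higher and 34 lower, with no call reversed. Among the 41 members with at least 10 counts in every library, 20 fell and 2 rose. That set does not depend on which group is high, and the matching share over all genes is not given here. By family, 15 of 30 collagens and 12 of 22 integrins fell, as did 2 of 11 laminins; whether these shares differ was not tested. A call here means an adjusted p under 0.01 by edgeR's quasi-likelihood test with Benjamini-Hochberg adjustment over all genes, and log2 fold changes are given with their standard error (SE).

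**Figure D1:**
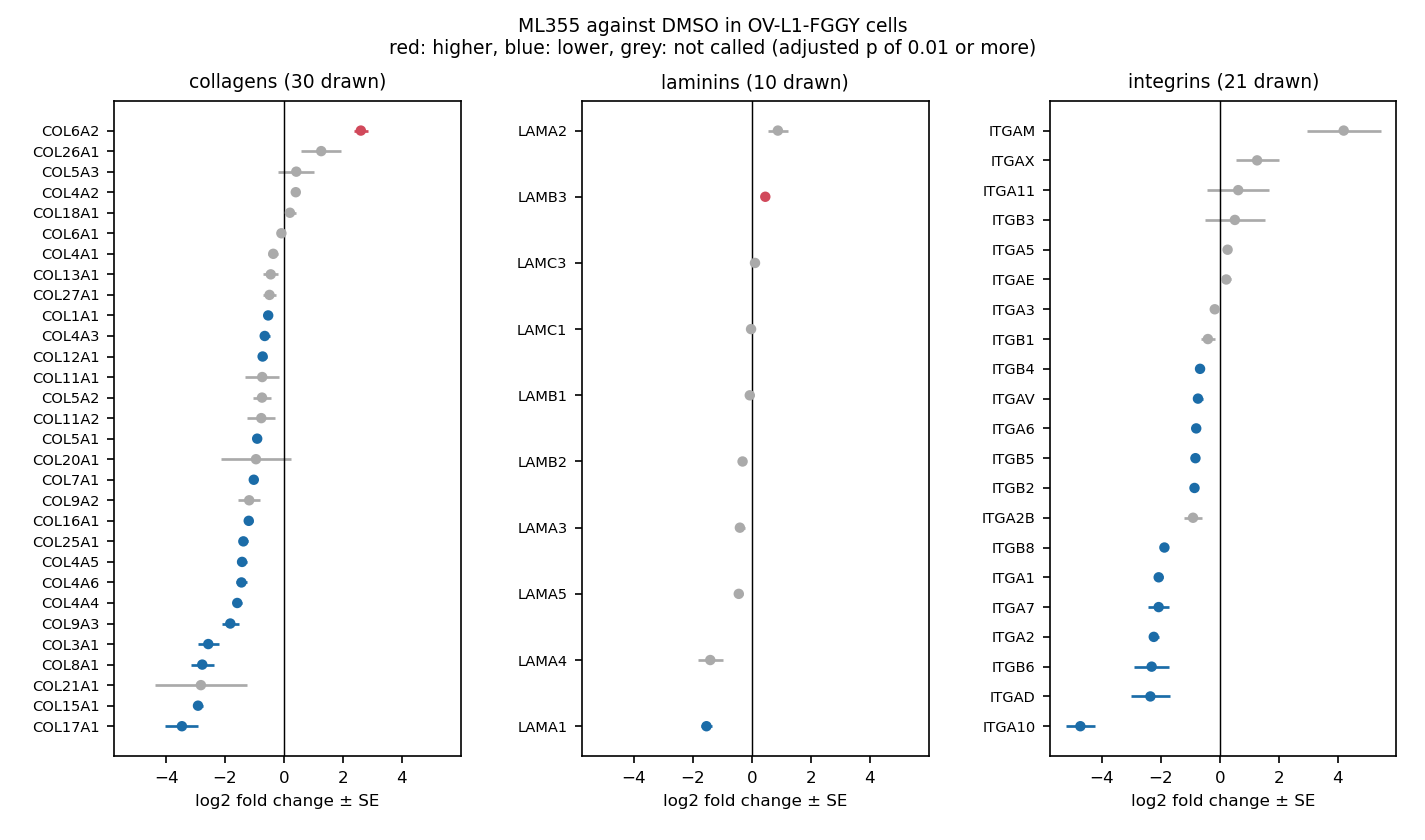
Log2 fold change with ML355 against DMSO in OV-L1-FGGY cells for the members drawn, in 3 panels by family; points are edgeR estimates from 3 libraries a group and bars are ± 1 SE. Of the members drawn, 28 are blue (lower) and 2 red (higher), and ITGA4, which had no count in either group, is among those left out.

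Summed over the family, integrin transcripts went from 2890 to 3121 CPM in the DMSO libraries to 1702 to 1773 CPM with ML355, and collagen transcripts from 1896 to 2096 CPM to 1191 to 1352 CPM. Laminin sums were 1790 to 1980 CPM with DMSO and 1723 to 1752 CPM with ML355. In all 3 families the ML355 libraries lay below the DMSO libraries, and in laminins the nearest libraries of the 2 groups were 1790 and 1752 CPM. In a bulk sample, fewer cells of one type and less RNA per cell cannot be told apart.

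Of the 4 collagen-binding alpha subunits tested, 3 fell and none rose. ITGA1, the alpha subunit that prefers type IV collagen, was at 728, 600 and 673 CPM with DMSO and 179, 156 and 140 CPM with ML355. The highest ML355 library was thus far below the lowest DMSO library, and the log2 fold change was -2.07 (SE 0.13, adjusted p = 4.35e-09). Reads of ITGA1 are uncertain for the 13.2% of its exonic length that it shares with other genes, PELO among them.

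ITGA2, whose protein prefers fibrillar collagen, was at 443, 372 and 417 CPM with DMSO and 89.6, 93.6 and 77.3 CPM with ML355. Its log2 fold change was -2.24 (SE 0.18, adjusted p = 3.97e-08), close to that of its neighbour ITGA1. The genes lie at chr5:52787916-52959209 and chr5:52989340-53094779, both on the plus strand and 30131 bases apart. ITGA10, the third of the group, was far lower in level, at 4.19, 5.94 and 3.88 CPM with DMSO and 0.296, 0 and 0.21 CPM with ML355 (log2 fold change -4.73, SE 0.50, adjusted p = 8.68e-07). ITGA11, the last collagen-binding subunit, had 3 counts in all with DMSO and 5 with ML355, so that no difference was detectable at this depth.

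Several beta subunits fell as well. ITGB8, which pairs with ITGAV to hold latent TGF-beta, was at 73.9, 65.4 and 75.9 CPM with DMSO and 21.7, 17.7 and 19 CPM with ML355, without overlap (log2 fold change -1.88, SE 0.13, adjusted p = 1.11e-08). ITGB5, another partner of ITGAV, was at 287, 278 and 280 CPM with DMSO and 142, 150 and 184 CPM with ML355 (log2 fold change -0.83, SE 0.11, adjusted p = 1.52e-05). ITGAV itself fell with them, from 123 ± 7.64 to 73.6 ± 7.48 CPM (SD, n = 3; log2 fold change -0.74, SE 0.16, adjusted p = 0.000861). ITGB6, the epithelial partner of ITGAV, was low in both groups, with 0.451 ± 0.156 CPM and 0.0847 ± 0.0279 CPM (adjusted p = 0.00372).

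The hemidesmosome pair fell by a smaller amount. ITGB4 was at 193, 211 and 231 CPM with DMSO and 144, 111 and 144 CPM with ML355, a log2 fold change of -0.67 (SE 0.13, adjusted p = 0.000322). ITGA6 was at 79.7, 68.3 and 79.7 CPM and at 43.6, 49.7 and 37.3 CPM, a log2 fold change of -0.80 (SE 0.14, adjusted p = 0.000151). Both genes were lower in every ML355 library than in any DMSO library. ITGA7, a laminin receptor subunit of muscle, and the leukocyte subunits ITGB2 and ITGAD also fell, the first and the last from under 2 CPM.

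ITGA3, ITGA5 and ITGB1 were not called in the edgeR fit of all 4 groups. ITGB1, the partner shared by most alpha subunits, was at 581, 531 and 609 CPM with DMSO and 462, 434 and 403 CPM with ML355. Its ML355 libraries all lay lower, but the log2 fold change of -0.41 had an SE of 0.23 (adjusted p = 0.146). In an edgeR fit of the 2 groups alone ITGB1 was called lower (log2 fold change -0.40, adjusted p = 0.00306). ITGA3, a receptor subunit for laminin-332 and laminin-511, was at 317 ± 8.82 CPM and 281 ± 12.6 CPM (adjusted p = 0.167). ITGA5, the subunit of the fibronectin receptor, was at 240 ± 18.2 CPM and 288 ± 5.09 CPM (log2 fold change 0.26, SE 0.10, adjusted p = 0.0373). With DESeq2 ITGA5 was called higher (adjusted p = 0.0072).

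**Figure D2:**
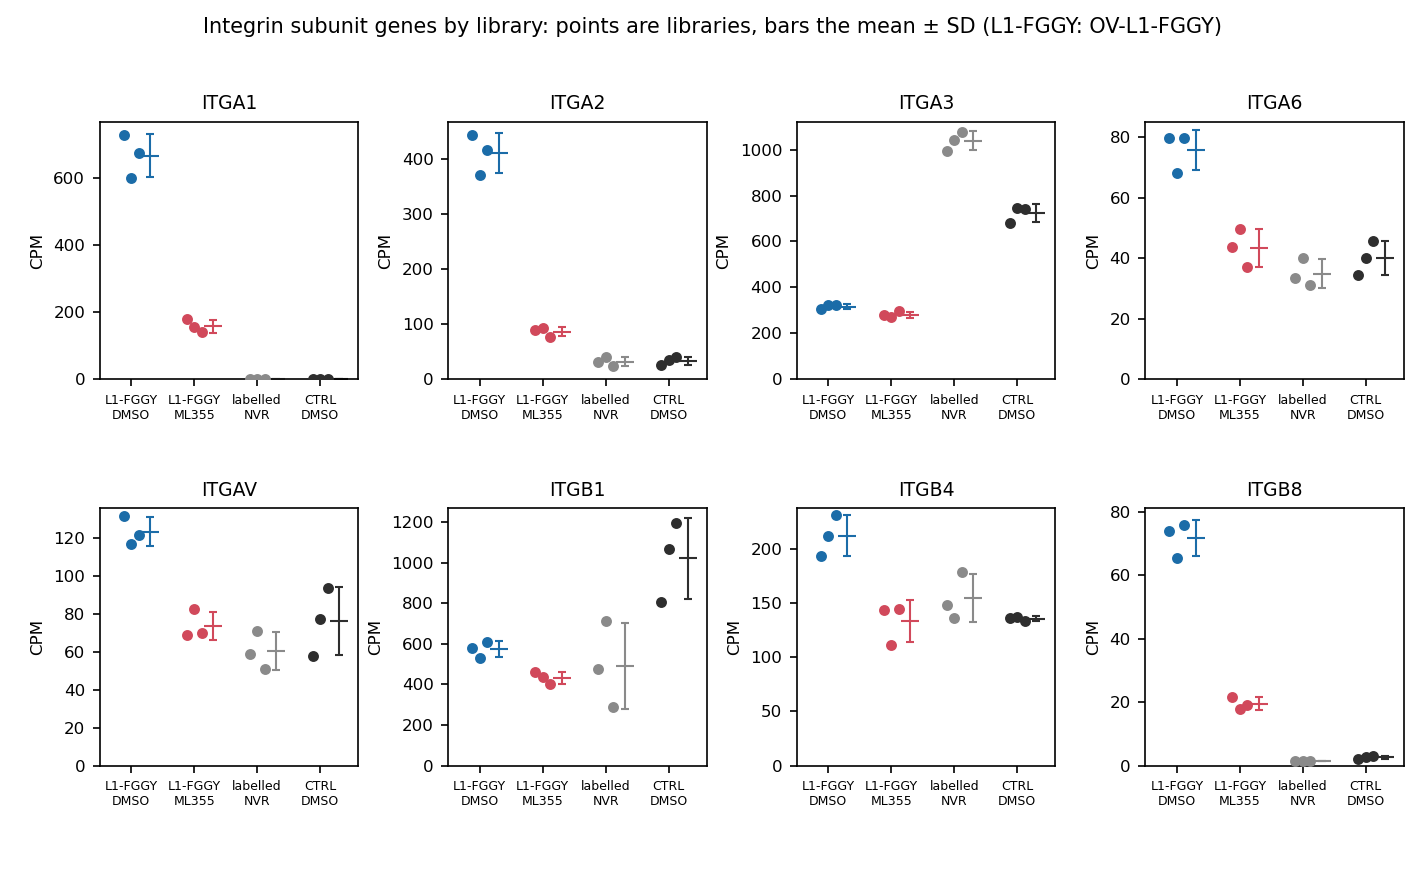
CPM (linear axes from 0) of 8 integrin subunit genes in each library, with the mean and SD of 3 libraries a group to the right of the points. ITGA1, ITGA2 and ITGB8 are high in OV-L1-FGGY DMSO, lower with ML355 and near 0 or low in the other 2 groups, while ITGA3 is highest in the libraries labelled NVR.

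Among the basement membrane collagens, 4 of the 6 type IV chain genes fell and the other 2 were not called. COL4A5 was at 228, 246 and 241 CPM with DMSO and 96.3, 88.6 and 82.1 CPM with ML355 (log2 fold change -1.42, SE 0.17, adjusted p = 2.80e-06). COL4A6, on the other side of the same start region of the X chromosome, was at 126, 126 and 133 CPM and at 53.8, 39.3 and 48.4 CPM (log2 fold change -1.44, SE 0.18, adjusted p = 4.86e-06). The 2 genes start 341 bases apart and fell by the same amount within their errors.

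COL4A4 was at 44.4, 42.8 and 46 CPM with DMSO and 13.2, 16.1 and 15.1 CPM with ML355, a log2 fold change of -1.59 (SE 0.15, adjusted p = 2.50e-07). COL4A3, which starts 171 bases from it, was at 21.2, 18.8 and 20.1 CPM and at 13.2, 12.2 and 12.8 CPM, a smaller log2 fold change of -0.65 (SE 0.17, adjusted p = 0.00352). COL4A3 shares 6.82% of its exonic length with a gene on the other strand.

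COL4A1 and COL4A2 encode the chains of the common type IV trimer. COL4A1 was at 156, 144 and 162 CPM with DMSO and 123, 117 and 119 CPM with ML355, while COL4A2 was at 252, 252 and 294 CPM and at 337, 321 and 397 CPM. COL4A1 thus lay lower and COL4A2 higher in every ML355 library than in any DMSO library, and neither was called (log2 fold changes -0.36 with SE 0.16 and 0.40 with SE 0.12, adjusted p = 0.0675 and 0.0106). In an edgeR fit of the 2 groups alone COL4A1 was called lower (adjusted p = 0.00356) and COL4A2 higher (0.0031). The difference between the 2 genes' changes was not tested.

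**Figure D3:**
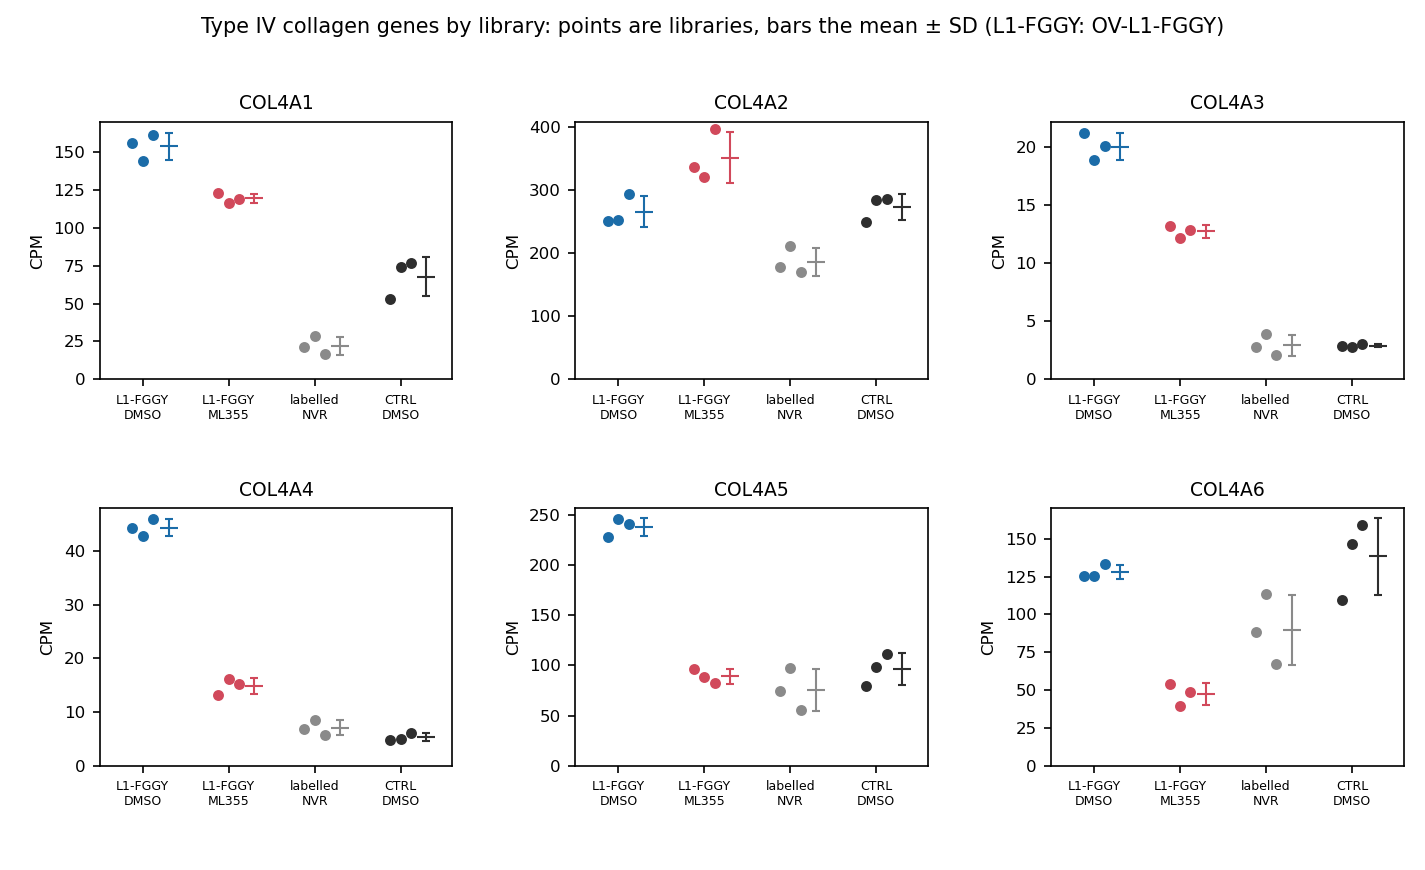
CPM (linear axes from 0) of the 6 type IV collagen genes in each library, with the mean and SD of 3 libraries a group. COL4A5 and COL4A6 lie at 39.3 to 96.3 CPM with ML355, below all of their DMSO libraries, while COL4A2 lies between 321 and 397 CPM there, above its DMSO libraries in OV-L1-FGGY cells.

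The collagens that anchor squamous epithelium both fell. COL7A1, the anchoring fibril collagen of the junction between epidermis and dermis, was at 294, 327 and 308 CPM with DMSO and 148, 140 and 169 CPM with ML355 (log2 fold change -1.02, SE 0.11, adjusted p = 1.18e-06). COL17A1, the transmembrane collagen of hemidesmosomes, was at 1.55, 1.42 and 1.71 CPM and at 0.0493, 0.36 and 0 CPM (log2 fold change -3.46, SE 0.56, adjusted p = 6.95e-05). The fall of COL7A1 rested on far more reads than that of COL17A1.

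Of 8 fibrillar collagen genes tested, 3 fell and none rose. COL5A1, which starts the assembly of fibrils, was at 364, 378 and 445 CPM with DMSO and 183, 220 and 229 CPM with ML355 (log2 fold change -0.91, SE 0.13, adjusted p = 2.46e-05). COL3A1, the chain of type III collagen in soft stroma, was at 5.68, 10.2 and 7.76 CPM and at 1.58, 1.34 and 1.05 CPM (log2 fold change -2.57, SE 0.35, adjusted p = 1.26e-05). COL1A1 went from 55.6 ± 5.65 to 38.4 ± 4.36 CPM (log2 fold change -0.54, SE 0.13, adjusted p = 0.00201). Its partner chain COL1A2 had at most 2 counts in any library and was not tested.

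Outside the fibrils and sheets, COL15A1, a basement membrane zone collagen whose relative COL18A1 did not pass the test, had the largest fall of a member above 10 CPM. It was at 39.7, 38.5 and 42.4 CPM with DMSO and 6.16, 5.1 and 4.68 CPM with ML355 (log2 fold change -2.92, SE 0.16, adjusted p = 8.05e-10). COL8A1, a short-chain network collagen, was at 5.68, 6.31 and 4.89 CPM and at 0.887, 0.36 and 1.21 CPM (log2 fold change -2.77, SE 0.38, adjusted p = 2.80e-05). COL12A1, COL16A1 and COL9A3, which decorate or link fibrils, and COL25A1, a transmembrane collagen, fell by log2 fold changes between -0.72 and -1.82.

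COL6A2, a chain of the beaded filaments around cells, was the one collagen called higher with ML355 in this fit. COL4A2, given above, was called higher with DESeq2, limma voom, DESeq2 size factors and a fit of the 2 groups alone (adjusted p from 0.00174 to 0.00861). COL6A2 was at 1.2, 0.894 and 1.51 CPM with DMSO and 8.33, 6.18 and 7.67 CPM with ML355, without overlap (log2 fold change 2.61, SE 0.25, adjusted p = 2.64e-07). COL6A1, 93062 bases upstream on the same strand of chromosome 21, was at 69.7, 75.5 and 74.4 CPM and at 69.5, 59.7 and 77.6 CPM (adjusted p = 0.519). The third chain of the filament, COL6A3, was not tested for lack of counts.

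Of 11 laminin genes, 1 rose and 2 fell. LAMB3, the beta chain of laminin-332, was at 421, 454 and 429 CPM with DMSO and 655, 580 and 552 CPM with ML355 (log2 fold change 0.45, SE 0.10, adjusted p = 0.00146). LAMA3, the alpha chain of that trimer, was at 44.5 ± 6.44 and 33.6 ± 3.67 CPM (adjusted p = 0.0384). LAMB3 thus rose while LAMA3 was not called.

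LAMA1, the alpha chain of the embryonic laminin-111, was at 152, 102 and 162 CPM with DMSO and 45.8, 49.1 and 48 CPM with ML355 (log2 fold change -1.54, SE 0.18, adjusted p = 2.04e-06). LAMB1 and LAMC1, which complete that trimer, were at 223 ± 9.4 and 301 ± 16.3 CPM with DMSO and at 212 ± 21.4 and 295 ± 28 CPM with ML355 (adjusted p = 0.681 and 0.901). LAMA5, the alpha chain of laminin-511, was at 590, 585 and 668 CPM and at 389, 430 and 535 CPM, lower in every ML355 library but not called (log2 fold change -0.45, SE 0.14, adjusted p = 0.0127). LAMA5 was called lower with DESeq2 (adjusted p = 0.00371), limma voom (0.00691), library size alone (0.00264), both other filters, the fit of the 2 groups alone and the replicate block, and LAMB2 with DESeq2 (0.0036), limma voom (0.00969), library size alone and the stricter filter. LAMA4 was called lower with DESeq2 (0.0014), library size alone and no filter. LAMA1 shares 11.1% of its exonic length with genes on the other strand.

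The count of 31 stayed between 28 and 31 when 1 library was left out. LAMB3 lost its call without OV-L1-FGGY DMSO replicate 1 (adjusted p = 0.0111) and with library size alone as the scaling (0.0141). COL1A1 lost it without DMSO replicate 3 (0.0137) or ML355 replicate 1 (0.0125), and ITGB6 without DMSO replicate 1 (0.0187), ML355 replicate 1 (0.0109) or ML355 replicate 3 (0.0172). COL4A3 lost it without DMSO replicate 1 (0.0166), DMSO replicate 3 (0.0120), ML355 replicate 2 (0.0132) or ML355 replicate 3 (0.0108), and ITGAD without DMSO replicate 2 (0.0409) or 3 (0.0101) or ML355 replicate 1 (0.0270) or 3 (0.0172) and with the replicate block (0.0116).

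Fibroblasts make fibrillar collagens, and the sum of their markers was lower with ML355, while the single markers did not move as one. The summed level of 8 fibroblast markers was 299 to 321 CPM with DMSO and 88.5 to 103 CPM with ML355, against 16.5 to 25.2 CPM in the other pair of groups. LUM and DCN carried most of it with DMSO (223 and 60.9 CPM), and they, FAP, PDGFRB and PRRX1 were lower with ML355. PDGFRA was at 0 counts in all 6 libraries of this pair and THY1 at 1 count or fewer. TWIST2 changed little, at 18.4 CPM with DMSO and 15.2 CPM with ML355. It made up most of the sum in CTRL DMSO (14.5 CPM) and in the libraries labelled NVR (18.7 CPM), where THY1 was at 4.62 and 2.8 CPM. The epithelial sum was 933 to 968 CPM with DMSO and 587 to 756 CPM with ML355, and the squamous sum 931 to 969 and 3126 to 4801 CPM, nearly all of it KRT17. Within the epithelial list KRT8 and KRT18 were lower with ML355 (566 to 353 and 299 to 151 CPM), while CLDN4 and CLDN7 were higher (59.4 to 146 and 16.6 to 28.7 CPM) and EPCAM was at 8.87 and 9.17 CPM. Smooth muscle markers summed to 7.21 to 7.99 and 2.63 to 3.01 CPM, endothelial markers to 8.89 to 9.52 and 0.360 to 0.838 CPM, leukocyte markers to 4.33 to 5.63 and 5.03 to 6.80 CPM, and mesothelial markers to 391 to 450 and 354 to 546 CPM. MSLN alone made up nearly all of the mesothelial sum (418 CPM with DMSO and 462 CPM with ML355). UPK3B was at 3.18 and 1.34 CPM, CALB2 at 0.236 and 0.0172 CPM, and WT1 at 0 and 0.0172 CPM. The part of these markers in the result was not tested.

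The genes that make, bind or cut these proteins were counted from lists of 161 partner genes, to be read against the 23.5% lower and 21.3% higher over all genes. With ML355, 9 of 18 basement membrane partners fell and none rose, among them SMOC1, a calcium-binding protein of the sheet (451 ± 21 to 150 ± 4.22 CPM), and DAG1, the laminin receptor dystroglycan (394 ± 33.7 to 140 ± 14.1 CPM). Of 21 other matrix glycoproteins, 9 fell and none rose. Of 24 matrix proteases and inhibitors, 14 fell and 2 rose, with MMP2, a protease that cuts type IV collagen, at 50.5 ± 3.36 and 14.6 ± 2.03 CPM and the inhibitor TIMP3 at 417 ± 10 and 89.2 ± 3.52 CPM. For TIMP3 the log2 fold change was -2.22 (SE 0.17, adjusted p = 2.24e-08).

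Collagen processing genes split, with 12 of 34 lower (35.3%) and 8 higher (23.5%, near the share over all genes). P3H2, a prolyl hydroxylase of basement membrane collagen, fell from 122 ± 6.87 to 50.2 ± 4.03 CPM, and P4HA1, a subunit of the main prolyl hydroxylase, rose from 74.6 ± 6.25 to 136 ± 9.94 CPM. Inside the cell, 11 of 33 integrin adhesion components fell and 3 rose. The largest fall there was TNS4, a tensin of adhesion sites, from 34.2 ± 4.3 to 2.13 ± 0.175 CPM (log2 fold change -4.00, SE 0.14, adjusted p = 8.03e-12). Of 7 hemidesmosome partners and tetraspanins, 3 fell. Of 8 other collagen receptors, DDR1 (52.1 ± 2.5 to 28.8 ± 6.66 CPM) and 1 more fell and 2 rose, among them the syndecan SDC4 (225 ± 14.5 to 341 ± 38.6 CPM).

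Levels can be compared between genes only per length, here as CPM per kilobase of exon. By this measure LAMB3 was the highest of all members in both groups of the high-FGGY pair, at 93.5 ± 3.77 with DMSO and 128 ± 11.5 with ML355. Its partner LAMA3 was far below it, at 3.07 ± 0.445 with DMSO. ITGA2 ranked second with DMSO (52.0) and fourteenth with ML355 (11). ITGB5 (43.3 ± 0.75) and LAMA5 (43 ± 3.25) did not differ beyond their spread with DMSO, nor did ITGB1 (39.4 ± 2.72) and ITGA1 (36.0) by more than the sum of their SDs.

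In CTRL DMSO the order of levels per kilobase was another. LAMA5 (98.5 ± 13.1), ITGB5 (90.7 ± 4.45), ITGA3 (73.8 ± 3.88) and ITGB1 (70.2 ± 13.7) led there, and the first pair and the second pair each overlapped within 1 SD. The libraries labelled NVR were led by ITGB5 (109 ± 4.54), ITGA3 (106 ± 4.27) and LAMA5 (88.5 ± 4.95), followed by COL18A1 (69.4). ITGA3 was at 32.3 per kilobase in OV-L1-FGGY DMSO, where it ranked below ITGA1.

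**Figure D4:**
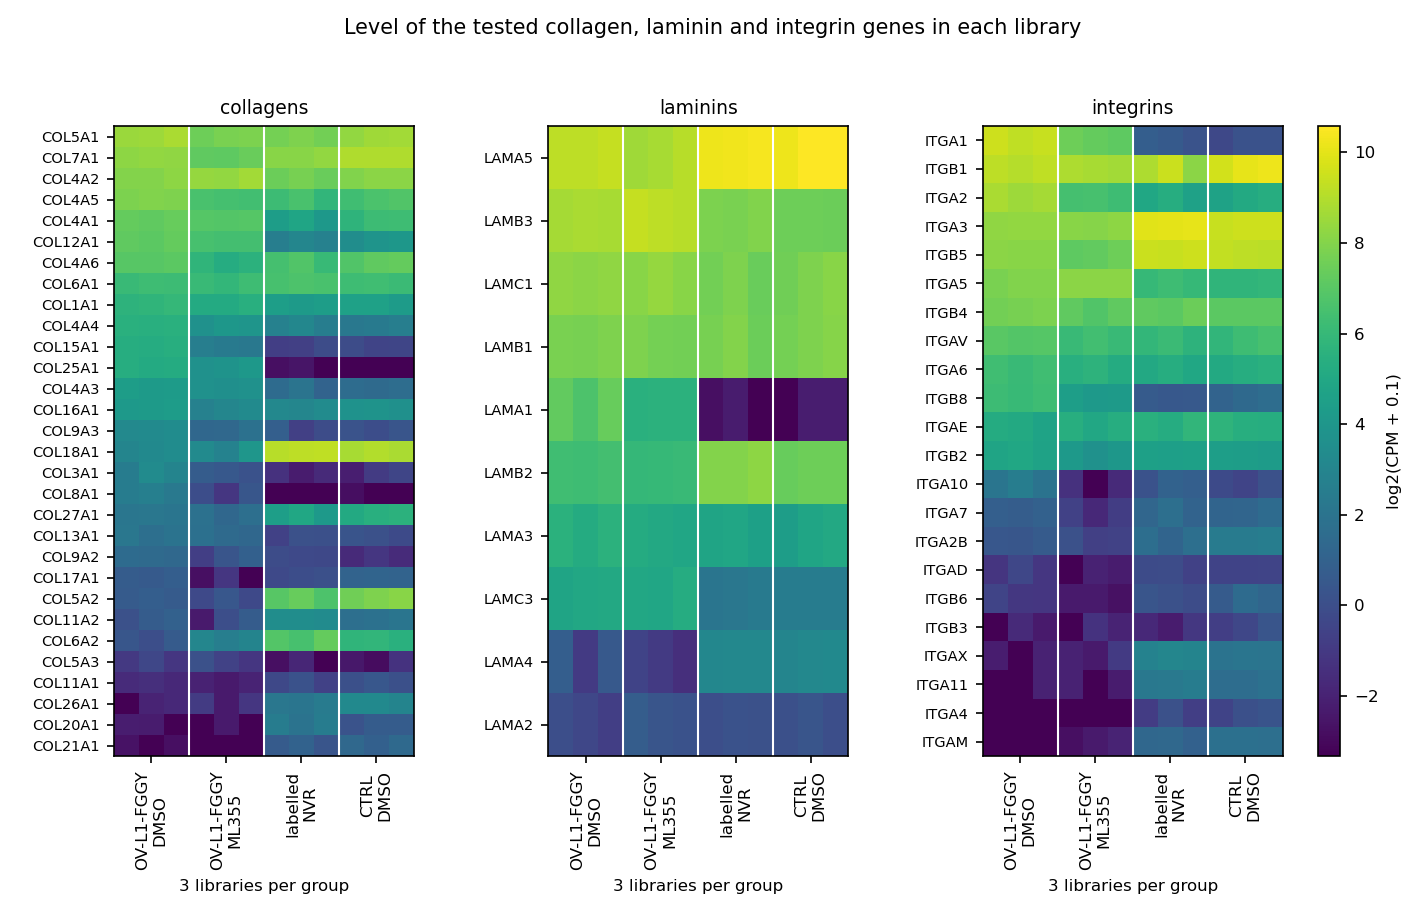
Level of 62 tested members in each of the 12 libraries as log2(CPM + 0.1), in 3 panels by family, rows ordered by the mean in OV-L1-FGGY DMSO and white lines between groups. The columns fall into 2 pairs of groups, and LAMA1, COL25A1 and ITGA1 are bright in the left pair and dark in the right, as COL18A1, COL5A2 and COL6A2 are the other way round.

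Between the pairs, most members differed, as did most genes. OV-L1-FGGY DMSO against CTRL DMSO gave 27 higher and 24 lower of 63 members (42.9% and 38.1%), where 32.5% of all genes tested were higher and 36.2% lower. Set against OV-L1-FGGY DMSO, the libraries labelled NVR gave 21 higher and 29 lower (33.3% and 46.0%), where all genes gave 38.2% and 35.4%. Of the 41 members with at least 10 counts in every library, 21 were higher and 12 lower in the first comparison. In the second, 11 were higher and 23 lower, and the matching shares over all genes are not given here. The 2 comparisons share the OV-L1-FGGY DMSO libraries, so that their values are given side by side and the second adds no independent evidence. The labelled difference of L1-FGGY or NVR cannot be told apart from the other differences between the pairs.

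Several members went from a high level to a few counts. LAMA1, given above for OV-L1-FGGY DMSO, was at 0, 0.117 and 0.115 CPM in CTRL DMSO and 0.05, 0.111 and 0 CPM in the libraries labelled NVR. COL25A1 had 2148 counts over the OV-L1-FGGY DMSO libraries, none in CTRL DMSO and 3 in the libraries labelled NVR, which made it at least 959-fold higher in OV-L1-FGGY DMSO than in CTRL DMSO, against a floor of 3 counts over the group. COL8A1 had 316 counts over the same libraries and none in the libraries labelled NVR, at least 122-fold lower there. ITGA1 was at 0.715, 1.02 and 1.04 CPM in CTRL DMSO and 1.7, 1.41 and 1.1 CPM in the libraries labelled NVR, with log2 fold changes of 9.48 (SE 0.20, adjusted p = 3.94e-15) for OV-L1-FGGY DMSO against CTRL DMSO and -8.88 (SE 0.19, adjusted p = 4.58e-15) for the NVR-labelled libraries against OV-L1-FGGY DMSO.

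ITGA2, ITGB8, COL15A1 and COL12A1 followed the same order of groups with smaller differences. ITGA2 was at 25.9, 34.4 and 40.5 CPM in CTRL DMSO and 30.9, 40.8 and 24.7 CPM in the libraries labelled NVR, and its log2 fold change for OV-L1-FGGY DMSO against CTRL DMSO was 3.61 (SE 0.19, adjusted p = 5.39e-11). ITGB8 was at 2.58 ± 0.505 and 1.4 ± 0.0881 CPM in these groups, COL15A1 at 0.706 ± 0.118 and 0.614 ± 0.181 CPM, and COL12A1 at 14.2 ± 2.64 and 6.99 ± 1.06 CPM. All 4 were also among the genes that fell with ML355.

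Other members were high where FGGY was low. COL18A1, the precursor of endostatin, was at 438, 501 and 459 CPM in CTRL DMSO and 549, 595 and 619 CPM in the libraries labelled NVR, against 7.97, 9.41 and 10.9 CPM in OV-L1-FGGY DMSO. It shares 18.5% of its exonic length with SLC19A1 on the other strand. COL5A2 was at 188, 240 and 271 CPM, 125, 162 and 103 CPM, and 1.49, 1.68 and 1.46 CPM in the same order. COL6A2 was at 55.5, 55.8 and 46 CPM in CTRL DMSO and 117, 93 and 154 CPM in the libraries labelled NVR. For OV-L1-FGGY DMSO against CTRL DMSO the log2 fold changes were -5.62 (SE 0.23, adjusted p = 3.21e-12), -7.23 (SE 0.24, adjusted p = 2.37e-13) and -5.43 (SE 0.23, adjusted p = 5.26e-12).

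COL3A1 and COL5A2 lie tail to tail on chromosome 2, 19152 bases apart, and ran opposite ways between the pairs. COL3A1 was at 7.88 ± 2.26 CPM in OV-L1-FGGY DMSO and 0.403 ± 0.264 CPM in CTRL DMSO, while COL5A2 was at 1.55 ± 0.12 and 233 ± 42.3 CPM. COL5A1, the partner of COL5A2 in type V collagen, was at 396 ± 43.4 and 367 ± 40.6 CPM (adjusted p = 0.454). The type V chains thus stood far apart in OV-L1-FGGY DMSO and close together in CTRL DMSO.

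The leukocyte integrin genes ITGAM and ITGAX, neighbours on chromosome 16, were low in level and higher in the low-FGGY pair. ITGAM was at 3.45, 3.4 and 3.34 CPM in CTRL DMSO and 2.4, 2.52 and 1.87 CPM in the libraries labelled NVR, and had no count in OV-L1-FGGY DMSO. ITGAX was at 3.79, 4.11 and 3.91 CPM and at 6.96, 8.33 and 7.57 CPM. Leukocyte markers summed to 3.34 to 5.08 CPM in CTRL DMSO and 9.81 to 13.8 CPM in the libraries labelled NVR. CD14 made up most of it, at 4 and 11.1 CPM against 1.05 CPM in OV-L1-FGGY DMSO, while PTPRC was at 0 in all 6 of these libraries and at 13 to 71 counts in the high-FGGY pair. The part of leukocyte RNA in the levels of ITGAM and ITGAX was not tested.

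The integrin genes ITGA3, ITGA5, ITGA6 and ITGB4 were present in all groups. ITGA3 was at 679, 747 and 743 CPM in CTRL DMSO and 307, 322 and 322 CPM in OV-L1-FGGY DMSO (log2 fold change -1.19 for the latter against the former, SE 0.10, adjusted p = 2.68e-08). ITGA5 ran the other way, at 55.4, 55.4 and 59 CPM and at 219, 250 and 251 CPM (log2 fold change 2.08, SE 0.11, adjusted p = 4.11e-11). ITGA6 and ITGB4 were at 40.1 ± 5.66 and 135 ± 2.17 CPM in CTRL DMSO and at 75.9 ± 6.62 and 212 ± 19.1 CPM in OV-L1-FGGY DMSO, both higher in the latter (adjusted p = 1.79e-05 and 0.000235). LAMB1, the beta chain of laminin-111 and laminin-511, was not called in any comparison, with group means from 212 to 237 CPM.

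The markers moved between the pairs too. The epithelial sum was 3948 to 5457 CPM in CTRL DMSO and 2015 to 3331 CPM in the libraries labelled NVR, most of it KRT8 and KRT18. KRT19 had no count in OV-L1-FGGY DMSO against 2976 to 3684 counts in CTRL DMSO. EPCAM, CLDN4 and CLDN7 ran the other way, at 8.87, 59.4 and 16.6 CPM in OV-L1-FGGY DMSO and 1.57, 8.65 and 0.506 CPM in CTRL DMSO. The mesothelial sum was 23 to 27 CPM in CTRL DMSO and 20.8 to 32.7 CPM in the libraries labelled NVR, and the squamous sum 19.0 to 23.6 and 10.3 to 18.3 CPM. Within the mesothelial list MSLN was at 418 CPM in OV-L1-FGGY DMSO and 0.938 CPM in CTRL DMSO. UPK3B, CALB2 and WT1 ran the other way, at 3.18, 0.236 and 0 CPM against 13.9, 6.41 and 3.41 CPM. The part of these markers in the differences was not tested.

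Within the low-FGGY pair, the libraries labelled NVR differed from CTRL DMSO in 20 of 63 members, 6 higher and 14 lower (9.52% and 22.2%), where 14.5% of all genes tested were higher and 15.3% lower. The ranges of the 2 groups overlapped for COL4A6. With library size alone as the scaling, 4 members were higher and 15 lower, and over all genes the split moved from 2593 higher and 2723 lower to 1825 and 3208. The count of 20 fell to 13 without CTRL DMSO replicate 2, to 12 without CTRL DMSO replicate 3 and to 13 without NVR replicate 1, and the members that lost their calls are named below. FGGY was low in both groups (4.25 CPM in the libraries labelled NVR and 3.41 CPM in CTRL DMSO), against the label of the former. By label the 2 groups differ in construct and agent together, so that an effect of NVR alone cannot be told apart.

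**Figure D5:**
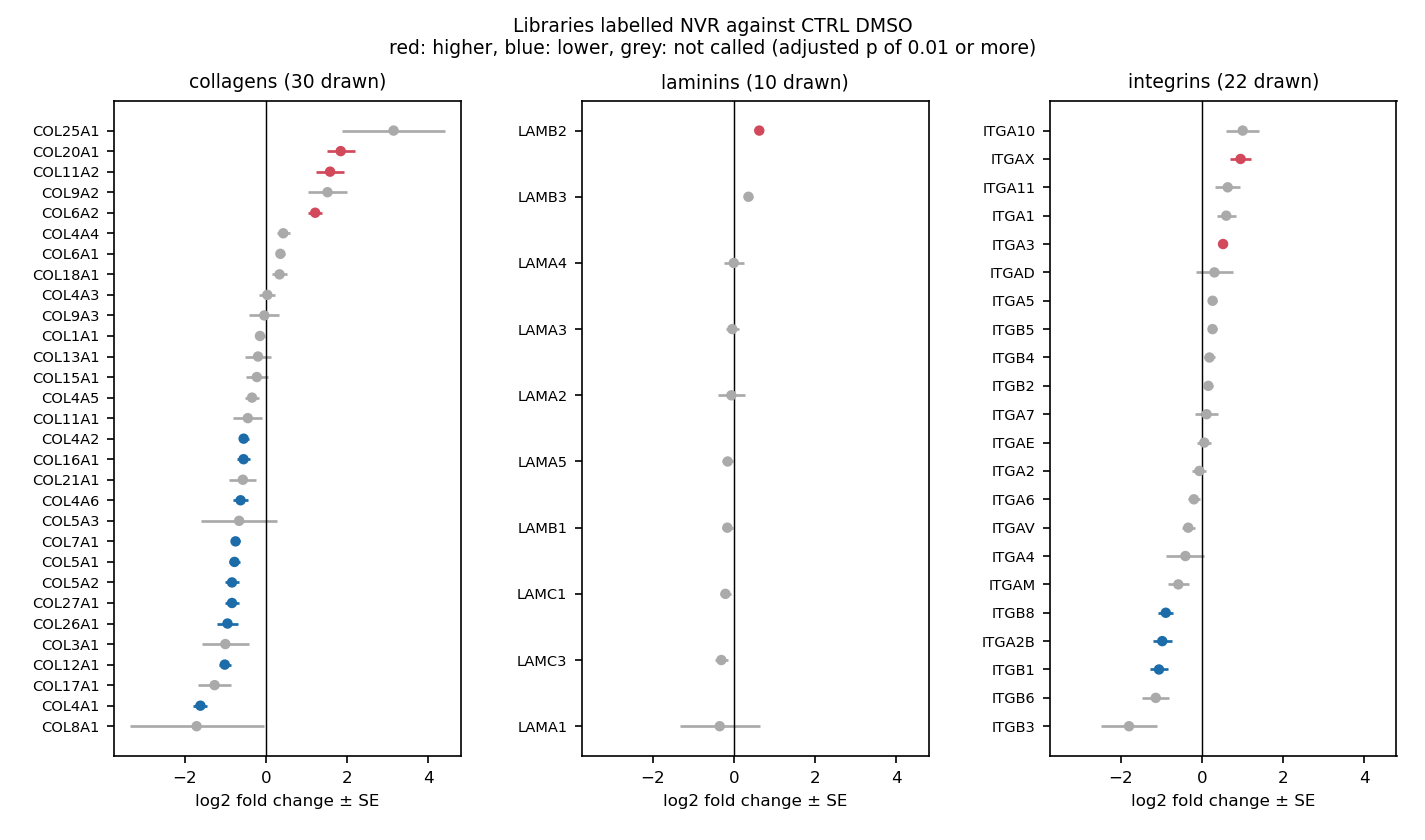
Log2 fold change between CTRL DMSO and the libraries labelled NVR (positive, higher in the latter) for the members drawn, in 3 panels by family; points are edgeR estimates from 3 libraries a group and bars are ± 1 SE. The 13 members in blue are lower and the 6 in red higher, and 10 of the blue points are collagens.

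Collagens made up 10 of the 14 lower members. Of 30 collagens tested 33.3% were lower and 10.0% higher, where over all genes 15.3% were lower and 14.5% higher. Whether these shares differ was not tested. COL4A1 had the largest fall, from 52.8, 74 and 76.8 CPM in CTRL DMSO to 21.1, 28.4 and 16.7 CPM in the libraries labelled NVR (log2 fold change -1.61, SE 0.17, adjusted p = 2.52e-06). Its partner COL4A2 was at 251, 284 and 287 CPM and at 179, 212 and 170 CPM, a log2 fold change of -0.55 (SE 0.12, adjusted p = 0.00201), so that both genes of this pair were lower, by unequal amounts. COL7A1 was at 488, 494 and 492 CPM and at 279, 271 and 327 CPM (log2 fold change -0.75, SE 0.11, adjusted p = 6.64e-05). COL12A1 and COL5A1 fell by 1.01 (SE 0.15, adjusted p = 6.39e-05) and 0.78 (SE 0.13, adjusted p = 0.00023) on the log2 scale.

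Among the integrins, ITGB8 was at 2.06, 2.62 and 3.07 CPM in CTRL DMSO and 1.5, 1.33 and 1.37 CPM in the libraries labelled NVR (log2 fold change -0.89, SE 0.19, adjusted p = 0.00141). ITGB1 was at 804, 1067 and 1196 CPM and at 474, 713 and 289 CPM, a wide spread within both groups (log2 fold change -1.05, SE 0.23, adjusted p = 0.0018). Calls were lost without CTRL DMSO replicate 2 for COL4A2 (adjusted p = 0.0117), COL11A2 (0.0110), ITGA2B (0.0142) and COL4A6 (0.0344), without CTRL DMSO replicate 3 for ITGB1 (adjusted p = 0.0131), ITGB8 (0.0103), COL4A2 (0.0101), COL4A6 (0.0455) and ITGA2B (0.0185), and without NVR replicate 1 for ITGB1 (0.0102), COL4A2 (0.0144), COL4A6 (0.0329) and ITGA2B (0.0113). ITGB8 also lost its call with limma voom (adjusted p = 0.0176). An edgeR fit of the 2 groups alone lost 5 calls and gained 2. Among those lost there were ITGB8 (adjusted p = 0.0137), ITGB1 (0.0235), COL16A1 (0.0117) and COL4A6 (0.0384). COL4A6 was not called either with DESeq2 size factors, the stricter filter, the replicate block or without NVR replicate 3. COL16A1, COL26A1 and ITGAX lost theirs in 5 or 6 of the 6 runs that left out a library.

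The 6 higher members included COL6A2 (52.4 ± 5.58 to 122 ± 30.8 CPM, log2 fold change 1.21, SE 0.17, adjusted p = 3.74e-05), LAMB2 (176 ± 9.88 to 271 ± 20.2 CPM, log2 fold change 0.62, SE 0.10, adjusted p = 0.000131) and ITGA3 (723 ± 38.1 to 1039 ± 41.9 CPM, log2 fold change 0.52, SE 0.10, adjusted p = 0.000759). LAMB2 is the beta chain of laminins at nerve and muscle junctions. ITGA3 lost its call with library size alone (adjusted p = 0.0134). COL20A1 (1.4 ± 0.263 to 5.05 ± 1 CPM) and COL11A2 (3.65 ± 0.407 to 10.9 ± 0.661 CPM) were low in level.

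Of the partner lists in this comparison, 14 of 33 integrin adhesion components were lower and 4 higher, and 10 of 24 matrix proteases and inhibitors were higher and 3 lower. Over all genes 14.5% were higher and 15.3% lower. Collagen processing, near these shares, gave 6 higher and 6 lower of 34 (17.6% each), basement membrane partners 2 and 5 of 18, and other matrix glycoproteins 3 and 8 of 21. One listed basement membrane partner, FBLIM1, is an adaptor of cell adhesions rather than a matrix protein.

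In the ML355 comparison, the pairs COL4A5 and COL4A6, COL4A3 and COL4A4, and ITGA1 and ITGA2 each fell together, while of COL6A1 and COL6A2 only the latter was called. COL4A1 and COL4A2, whose annotated genes overlap by 1345 bases at their starts on opposite strands, moved by -0.36 and 0.40 on the log2 scale with ML355 and by -1.61 and -0.55 in the libraries labelled NVR against CTRL DMSO. Whether the counting used the strand is not stated, so reads in the overlap cannot be assigned with certainty.

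The 19 members not tested were 14 collagens, 1 laminin and 4 integrins, with at most 14 counts in any library. COL6A5 had no count in any library. Among them were COL1A2, COL6A3 and COL2A1, the chain of cartilage collagen. For these genes a difference was not detectable at this depth, where 3 counts correspond to 0.111 to 0.172 CPM.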

How the data were processed

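RNA-seq of 12 libraries given as NCI-H520 was analysed from gene counts that the authors deposited. According to the methods and the submitters' processing notes, the counts were made with STAR 2.5.3a and HTSeq 0.11.2 on hg38. The annotation release, the strand setting and the treatment of reads with several matches are not given in the sources used here, so reads of overlapping genes are uncertain. Sample groups were taken from the labels, and the 3 columns named DMSO were read as CTRL DMSO because no other group was left for them.

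Members were collagen, laminin and integrin genes of GENCODE 44 (GRCh38), in which 57532 of 58302 identifiers matched. The 3 families, roles, partner lists and marker lists were chosen with earlier results of these data known, and within the families every gene was taken by symbol. Genes passing filterByExpr (17849) were fitted with edgeR 4.0.16 in R 4.3.3 (TMM, robust quasi-likelihood, 4 group means over all 12 libraries), and calls needed an adjusted p under 0.01 over all genes. The common biological coefficient of variation was 0.143. CPM use TMM-scaled library sizes of 16242082 to 27004768 counts before scaling, and bounds and floors of 3 counts cover counting error only.

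Members were named by role, as the 5 largest rises and falls in each comparison without overlap and with a mean of at least 1 CPM, or where 100 counts in each library of one group met at most 3 in another. From each partner list, up to 3 genes per comparison with the smallest adjusted p were named. COL2A1, COL4A3, COL4A4, COL6A3, COL6A5, COL9A3, COL16A1, LAMA4, ITGA4, ITGA7, ITGAD and ITGB2 were named after their values were seen. The fit was tested on simulated data. Alternatives were DESeq2 1.42.0, limma 3.58.1 with voom, other scalings, filters and samples, the replicate number as a block, and each library left out. Promoter windows came from RefSeq (GRCh38.p14). Values of a few genes on the lists are not reported here, although the counts over lists include them.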

Additional observations from a re-analysis of the deposited data

How the results depend on the processing

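No call of a named member was reversed under any of the settings run. Of 1056 checks of named members with 1 library left out, 47 lost and 9 gained a call, and of 1346 under the other settings 21 lost and 37 gained one. The number of members called ranged with 1 library left out from 28 to 31 for ML355 against DMSO, from 48 to 53 for the NVR-labelled libraries against OV-L1-FGGY DMSO, from 47 to 48 for OV-L1-FGGY DMSO against CTRL DMSO and from 12 to 18 for the libraries labelled NVR against CTRL DMSO. With at least 10 counts in every library, 41 members were left to test. Of these, 33 were called for the NVR-labelled libraries against OV-L1-FGGY DMSO and 31 for OV-L1-FGGY DMSO against CTRL DMSO. Matching shares over all genes are not given here. Where calls also needed a log2 difference of 1 or more either way, 7 members remained for the libraries labelled NVR against CTRL DMSO. With the replicate number as a block the counts were 31, 50, 51 and 16, in the order of comparisons above. For ML355 the block kept 30 of the 31 calls, with ITGAD lost and LAMA5 gained. Same-numbered libraries did not deviate together (correlations from -0.354 to 0.17), so the numbers were not taken as pairs. DESeq2 called 37, 51, 51 and 26 members. Members under the floor of 3 counts, 0.111 to 0.172 CPM, could not be told from 0.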
